A study of Mus musculus with 10 samples.

Results

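A set of 10 genes for transcription factors of the early response was followed across all libraries, chosen by name through their mouse Ensembl identifiers. They were Fos, Fosl2, Jun, Junb and Jund of activator protein 1 (AP-1), its partners Atf3 and Batf, the zinc finger factor Egr1, and the CCAAT/enhancer binding proteins Cebpb and Cebpd. These were 10 of the 43432 genes in the count table, and 9 of the 10 were among the 14172 genes with enough counts to be tested. Batf was not. AP-1 is a pair of leucine zipper proteins, a JUN protein with another JUN or with a FOS, ATF or BATF protein, and C/EBP proteins bind DNA as pairs of the same fold. Many of these genes are immediate early genes, which are transcribed within minutes of a stimulus without new protein synthesis and whose transcripts are short-lived. In macrophages, lipopolysaccharide (LPS) acts through Toll-like receptor 4 on kinase pathways and on NF-κB, and AP-1 and C/EBP proteins take part in the expression of cytokine and protease genes.

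The cells were RAW264.7, a transformed mouse macrophage line, so that every library came from 1 cell line grown in 6-well plates. Compound **1**, the 7(E) form of 9-keto-hexadec-7-enoic acid, is an unsaturated keto fatty acid isolated from marine cyanobacteria. The 5 conditions had 2 libraries each: DMSO (solvent at 0.5%, no LPS), DMSO + LPS (the same solvent with LPS at 1 µg/mL), and **1** at 3.2, 10 and 32 µM, each with the same LPS. Solvent or **1** was given 1 h before LPS, and RNA was taken 12 h later, from all conditions alike. The labels number the 2 libraries of a condition as biological replicates without naming separate passages, so p-values measure the spread between cultures of 1 line. The share of DMSO in the wells with **1** is not given in the labels.

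Library totals lay between 45966803 and 58976377 counts, and 3 libraries stood apart. The second library at 32 µM held 2.59% of its counts on ribosomal RNA features (2.46% on Gm42418, a locus that holds rRNA sequence), against 0.0696 to 0.232% in the other 9. The first library at 10 µM held 451 counts of Epcam, 1039 of Krt8 and 87 of Krt18, genes of epithelial cells, and the first library at 3.2 µM held 78, 153 and 12, against 0 to 2 counts of each in the other 8 libraries. There were 181 genes with at least 20 counts at 10 µM replicate 1 and at most 2 in each of those 8 libraries, and they made up 0.0276% of its counts. The part of these signals in the results was not tested, and values without the 3 libraries are given where they end a call or take an adjusted p past 0.05. All 8 macrophage markers (Csf1r, Adgre1, Itgam, Cd68, Lyz2, Ptprc, Cd14 and Spi1) were detected in every library, with summed levels of 11071 to 11958 CPM in DMSO, 10382 to 10501 in DMSO + LPS and 8105 to 8492 at 32 µM. CPM is the count of a gene scaled to a common library size (counts per 1 M) with TMM factors. The T cell markers summed to 4.60 to 11.7 CPM, nearly all from Lck, with Cd3e at 0 in every library, and the 3 fibroblast markers summed to at most 0.367 CPM outside 10 µM replicate 1, where they reached 2.94 CPM.

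In the mouse genome (GRCm38) Fos spans chr12:85473890-85477273 and Batf chr12:85686669-85709087, both on the plus strand. Junb (chr8:84974484-84978718, minus strand) and Jund (chr8:70698949-70700616, plus strand) share chromosome 8. Jun (chr4:95049034-95052222, minus strand), Jund and Cebpb (chr2:167688915-167690418, plus strand) consist of 1 exon. Fosl2 (chr5:32135801-32157842, plus strand), Atf3 (chr1:191170296-191218039, minus strand) and Cebpd (chr16:15887286-15891031, plus strand) complete the set beside Egr1.

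The 250 bases before the transcription start are shown for 5 members with a RefSeq entry (GRCm38.p6) to set Fos, which did not pass the LPS test given further on, beside Jun, Junb, Atf3 and Cebpb, which rose. RefSeq start windows were matched for 8 of the 10 members, since Cebpd had no entry and Egr1 was left out. Positions count from the RefSeq start, which is not always the start of the gene span given above. The windows of Atf3 and Fosl2 lie inside those spans, and that of Batf reaches into its span. Those of Junb and Jund (chr8:70697489-70697738) end before the spans begin. Each sequence is read 5′ to 3′ in the direction of transcription, and capitals mark matches to the motifs named after it.
Fos (chr12:85473640-85473889, plus strand): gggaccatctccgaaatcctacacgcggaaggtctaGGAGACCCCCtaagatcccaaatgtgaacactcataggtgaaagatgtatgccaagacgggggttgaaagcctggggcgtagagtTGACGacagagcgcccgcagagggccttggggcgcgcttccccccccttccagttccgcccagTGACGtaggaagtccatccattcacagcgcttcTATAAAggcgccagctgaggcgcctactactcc
Jun (chr4:95052223-95052472, minus strand): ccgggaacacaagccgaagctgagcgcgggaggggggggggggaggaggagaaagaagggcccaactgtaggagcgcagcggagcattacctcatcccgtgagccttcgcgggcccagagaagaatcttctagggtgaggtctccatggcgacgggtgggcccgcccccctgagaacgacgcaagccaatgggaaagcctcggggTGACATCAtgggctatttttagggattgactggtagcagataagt
Junb (chr8:84978749-84978998, minus strand): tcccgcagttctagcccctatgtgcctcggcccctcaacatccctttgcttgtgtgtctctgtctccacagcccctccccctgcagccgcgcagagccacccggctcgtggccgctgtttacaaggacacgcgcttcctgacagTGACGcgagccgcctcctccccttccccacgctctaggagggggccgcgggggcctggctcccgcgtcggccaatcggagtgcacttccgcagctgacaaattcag
Atf3 (chr1:191183334-191183583, minus strand): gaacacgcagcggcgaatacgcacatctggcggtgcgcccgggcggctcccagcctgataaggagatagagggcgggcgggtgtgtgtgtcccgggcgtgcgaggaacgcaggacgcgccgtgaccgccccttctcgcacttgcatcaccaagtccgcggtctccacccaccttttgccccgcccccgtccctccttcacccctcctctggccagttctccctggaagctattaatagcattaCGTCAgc
Cebpb (chr2:167688665-167688914, plus strand): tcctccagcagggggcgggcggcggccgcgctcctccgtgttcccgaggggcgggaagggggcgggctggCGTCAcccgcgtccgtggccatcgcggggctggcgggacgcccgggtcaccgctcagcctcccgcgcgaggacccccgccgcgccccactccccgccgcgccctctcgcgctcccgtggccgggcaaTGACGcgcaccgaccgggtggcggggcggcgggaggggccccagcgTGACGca
In Fos the capitals mark an NF-κB motif at -214 from the start, the letters TGACG (the half-site of the cyclic AMP response element, CRE) at -129 and -66, and TATAAA at -33. In Jun they mark TGACNTCA, the form of AP-1 site known from this promoter, at -45. TGACG or its reverse complement CGTCA stood once in Junb at -106, once in Atf3 at -7 and 3 times in Cebpb at -180, -53 and -7. Both strands were searched, and 17.8% of 32851 promoter windows of the same length held TGACG, 7.49% TGACNTCA, 3.9% the NF-κB motif and 12.4% TATAAA. The search for TGACG and TGACNTCA was added after the sequences had been read, and the full CRE TGACGTCA contains both. None of the 5 windows held TGANTCA (the AP-1 site, 6.75% of windows), TGACGTCA (1.55%), the CArG box of serum response factor (1.47%), TTGCNNAA (C/EBP, 9.56%), GCGNGGGCG (EGR, 4.7%), TTCNNNGAA (STAT, 7.02%) or TGACNNNGC (the core of the antioxidant response element, 10.2%). Of the 3 matched windows not shown, Fosl2 held overlapping NF-κB motifs at -182 and -181 and an EGR motif at -79, Jund a C/EBP motif at -152 and Batf TGACG or its reverse complement at -98. These matches describe letters in the windows and no binding was measured. Bases outside the windows were not searched, so a motif absent here may stand farther from the start.

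To ask how the factors stood 12 h after LPS, DMSO + LPS was compared with DMSO. Of the 9 tested members, 5 (Jun, Junb, Atf3, Cebpb and Cebpd) rose at least 1.5-fold with an adjusted p under 0.05, the rule for a call used throughout, and none fell. Over all tested genes 28.2% were called, 14.6% as higher. Fosl2 and Jund also passed the adjusted p, but with less than 1.5-fold, which made 7 of 9 members against 50.9% of all genes. Fos and Egr1 did not pass. The 2 libraries of each condition did not overlap for 8 of the 9 members, against 76.9% of all genes. The median log2 fold change was 0.79 over the 9 members and 0.0026 over all genes tested. RNA per cell and the number of cells giving RNA cannot be told apart in such bulk libraries. For a single gene, 2 libraries against 2 allow an exact permutation test no p below 0.333, so the p-values come from the edgeR fit across all genes.

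Junb, a JUN protein that pairs with FOS and BATF proteins and is often a weaker activator than Jun, was the highest member per kilobase of exon in every condition. It was at 209.5 and 222 CPM in DMSO and at 663 and 724 CPM in DMSO + LPS. The means were 216 ± 8.68 and 693 ± 42.9 CPM (SD, n = 2), without overlap, and the rise was 1.69 on the log2 scale (SE 0.058, 3.22-fold, adjusted p = 1.58e-07, edgeR quasi-likelihood test). Jun, the classical AP-1 subunit, was at 51.6 and 51.3 CPM without LPS and at 87.2 and 90.0 CPM with it, again without overlap. Its rise was smaller, 0.79 on the log2 scale (SE 0.066, 1.72-fold, adjusted p = 2.49e-05). Jund, which many resting cells express, was at 60.4 and 49.8 CPM in DMSO and at 73.3 and 86.8 CPM with LPS (log2 fold change 0.54, SE 0.15, adjusted p = 0.0152). The groups did not overlap, but the adjusted p of Jund ranged from 0.00844 to 0.115 when 1 of the 10 libraries was left out at a time and stayed under 0.05 in 8 of the 10 fits, all but those without DMSO replicate 2 or DMSO + LPS replicate 2.

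Of the FOS family, Fosl2 passed the adjusted p and Fos did not. Fos was at 94.0 and 99.6 CPM in DMSO and at 95.6 and 95.4 CPM in DMSO + LPS. The LPS values lay within the DMSO range, and the log2 fold change was -0.02 with a 95% interval from -0.14 to 0.10 (adjusted p = 0.78), so that a change by 1.5-fold lies outside the interval. Scaled by library totals alone, Fos was at -0.23 (adjusted p = 0.00622), a scaling that moved the median of all genes by -0.20. Fosl2, a FOS protein of more lasting expression, was at 73.2 and 81.6 CPM without LPS and at 106 and 99.3 CPM with it (log2 fold change 0.41, SE 0.060, adjusted p = 0.000693). Egr1, a zinc finger activator that mitogens and stress induce within minutes, was at 25.2 and 25.02 CPM in DMSO and at 26.8 and 27.5 CPM in DMSO + LPS. The pairs did not overlap, but the log2 fold change of 0.11 (95% interval -0.036 to 0.26) had an adjusted p of 0.186, and its sign turned to -0.097 when libraries were scaled by their totals alone. The same scaling took Jun, at 0.58, below the 1.5-fold cutoff.

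Atf3, a stress-induced ATF protein that can repress inflammatory genes as a homodimer, was at 16.7 and 15.3 CPM in DMSO and at 49.3 and 50.5 CPM in DMSO + LPS. This rise of 1.64 on the log2 scale (SE 0.060, adjusted p = 2.18e-07) was close in size to that of Junb. Cebpb, a C/EBP protein that cooperates with NF-κB at inflammatory genes, was at 41.9 and 29.97 CPM without LPS and at 153 and 180.5 CPM with it. It had the largest fold among the 9 tested members (log2 fold change 2.21, SE 0.26, 4.63-fold, adjusted p = 0.000177) and also the widest interval, from 1.61 to 2.81. Cebpd, a C/EBP protein known as a sustaining factor of the LPS response, went from 28.3 and 27.5 CPM to 69.1 and 79.2 CPM (log2 fold change 1.41, SE 0.073, adjusted p = 1.41e-06). Batf, an AP-1 partner best known from lymphocytes and dendritic cells, had 0 counts in both DMSO libraries and 7 and 4 counts in DMSO + LPS. The mean with LPS was 1.73 times a floor of 3 counts per library set for DMSO. That ratio leaves out the counting error of 7 and 4 counts, and a rise of Batf was not tested. At 3 and 3, 3 and 3, and 3 and 1 counts at 3.2, 10 and 32 µM, Batf was too low for any comparison of doses.

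**Figure D1:**
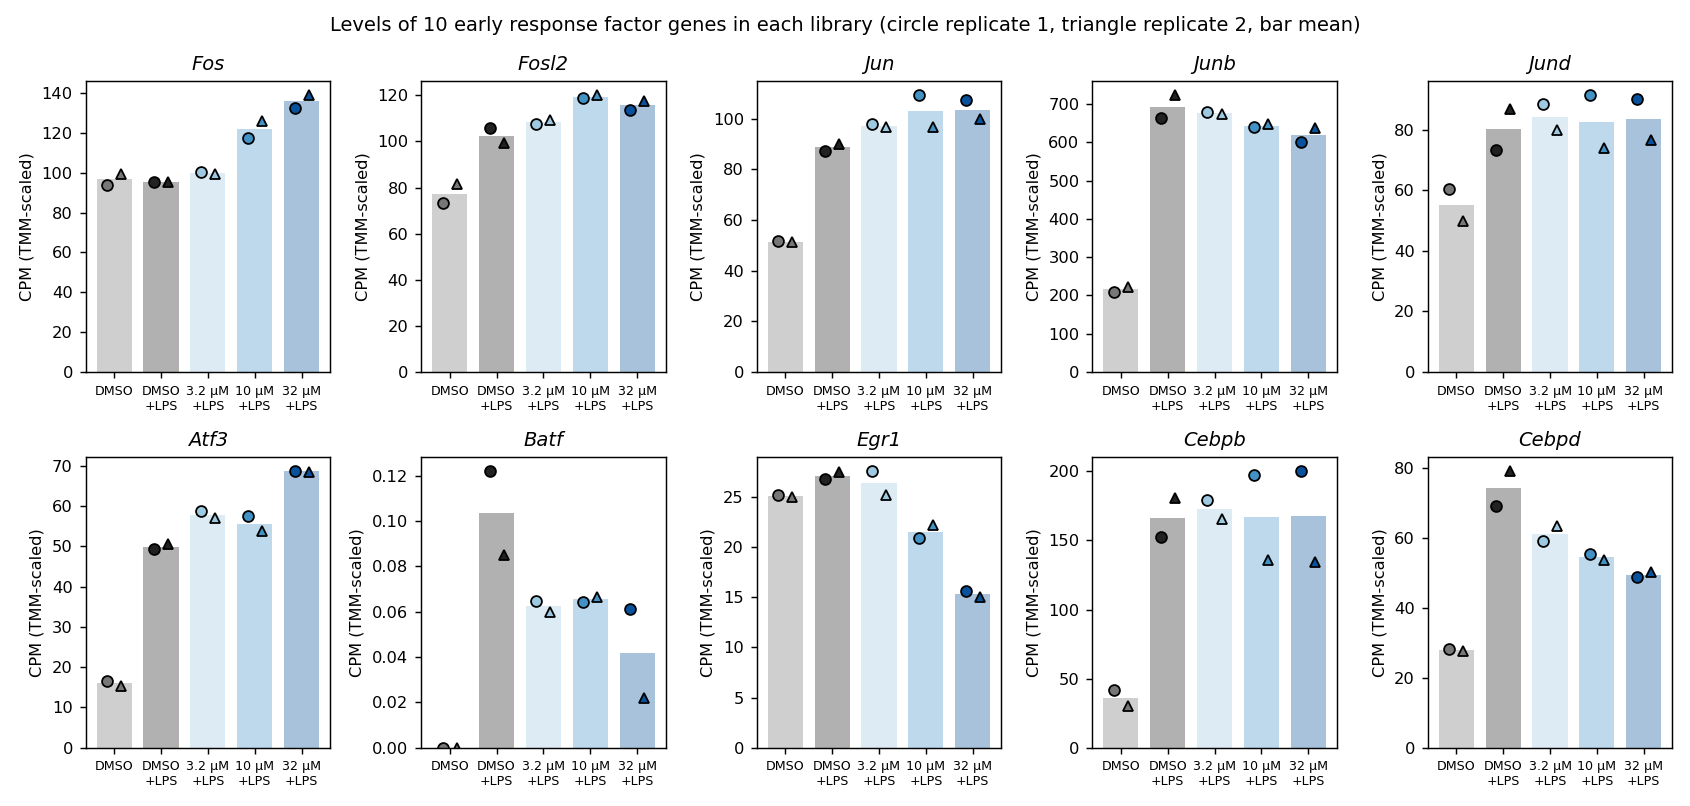
Levels of the 10 members in CPM in each library of the 5 conditions, with circles for replicate 1, triangles for replicate 2 and a bar at the mean. Junb, Atf3, Cebpb and Cebpd step up between DMSO and DMSO + LPS, while Fos lies at about the same level in both (96.8 and 95.5 CPM) and climbs to 136 CPM at 32 µM, where Egr1 is at 15.4 CPM.

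Per kilobase of exon, the order of mean levels in DMSO was Junb (93.7 CPM per kb), Fos (41.2), Jund (33.0), Cebpb (23.9), Jun (16.1), Fosl2 (7.996), Cebpd (7.44), Atf3 (7.41), Egr1 (5.60) and Batf (0). The libraries of Atf3 overlapped those of Cebpd and of Fosl2, so that Atf3 cannot be placed among them, while those of Cebpd and Fosl2 did not overlap. In DMSO + LPS the order of the levels was Junb (301 CPM per kb), Cebpb (111), Jund (48.0), Fos (40.6), Jun (27.8), Atf3 (23.2), Cebpd (19.8), Fosl2 (10.6), Egr1 (6.05) and Batf (0.0738). Cebpb thus moved from the fourth place to the second and Fos from the second to the fourth, and no neighbours in the order with LPS had overlapping libraries. With **1** at 32 µM, Fos (57.8 CPM per kb) stood above Jund (50.0), and Jun (32.4) and Atf3 (31.9) overlapped. Exon length was the union over all annotated transcripts of a gene, such as 9680 nucleotides for Fosl2 and 3746 for Cebpd. Which transcripts were expressed was not tested, so the places in these orders also depend on the lengths taken.

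To ask what **1** did to the factors in LPS-treated cells, each dose was compared with DMSO + LPS. The 3 comparisons share the DMSO + LPS libraries, so their values are given side by side and are not independent of each other. At 32 µM, 1 of the 9 tested members was called, Egr1, which fell, where 4.18% of all genes were called and 2.91% as lower. By the adjusted p alone 4 members passed (9.78% of all genes did). Fos and Atf3 were higher, and Egr1 and Cebpd were lower. At 10 µM no member was called (0.861% of all genes), with Fos, Egr1 and Cebpd past the adjusted p alone (2.67% of all genes). At 3.2 µM no member and no gene was called (0%) by edgeR, while 2 members and 600 genes had an unadjusted p under 0.05 and DESeq2 called 8 genes by its Wald test, edgeR's likelihood ratio test 3 and a fit of the 4 libraries compared 66. The median log2 fold change of the members was 0.059, 0.045 and 0.065 at 32, 10 and 3.2 µM, beside 0.0082, 0.016 and 0.0040 over all genes.

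Egr1 was at 26.8 and 27.5 CPM in DMSO + LPS, at 27.6 and 25.2 CPM with **1** at 3.2 µM, at 20.9 and 22.1 CPM at 10 µM and at 15.7 and 15.1 CPM at 32 µM. The 2 higher doses lay below all 6 libraries of the other conditions, and the 2 libraries at 32 µM lay below those at 10 µM. The mean at 32 µM was 15.4 ± 0.417 CPM (SD, n = 2), which is 56.6% of the 27.1 ± 0.521 CPM in DMSO + LPS (log2 fold change -0.82, SE 0.065, 95% interval -0.97 to -0.67, adjusted p = 0.000133, edgeR quasi-likelihood test). The call held in 10 of 10 fits that each left out 1 library, with values from -0.85 to -0.79, and without the 3 libraries that stood apart the value was -0.79 (adjusted p = 0.00418). At 10 µM the value was -0.33 (adjusted p = 0.0374), and only 1 of the 10 fits with a library left out kept the adjusted p under 0.05, with a range of 0.0499 to 0.272. Without the 3 libraries it was -0.29 at 10 µM (adjusted p = 0.311). The step from 10 to 32 µM, a fall by 0.49 on the log2 scale, passed the adjusted p of the same test at 0.00692 but not without the 3 libraries (0.124).

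Fos was at 95.6 and 95.4 CPM in DMSO + LPS, at 100.4 and 99.3 CPM at 3.2 µM, at 118 and 126 CPM at 10 µM and at 133 and 139 CPM at 32 µM. No library of 10 or 32 µM overlapped those of a lower dose. The mean at 32 µM was 136 ± 4.61 CPM (SD, n = 2), or 142% of the 95.5 ± 0.127 CPM in DMSO + LPS (log2 fold change 0.51, SE 0.052, 95% interval 0.39 to 0.63, adjusted p = 0.000538), under the 1.5-fold cutoff. This held an adjusted p under 0.05 in all 10 fits with 1 library left out (0.000326 to 0.0105) and without the 3 libraries that stood apart (0.47, adjusted p = 0.0131). The change at 10 µM was 0.35 (adjusted p = 0.0129), with an adjusted p of 0.0974 without the 3 libraries and up to 0.138 with 1 library left out.

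Cebpd was at 69.1 and 79.2 CPM in DMSO + LPS, at 59.1 and 63.2 CPM at 3.2 µM, at 55.3 and 53.6 CPM at 10 µM and at 48.8 and 50.1 CPM at 32 µM. Each dose lay below the one under it without overlap, and every treated library lay above the 28.3 and 27.5 CPM of DMSO. The means were 74.1 ± 7.14 CPM in DMSO + LPS and 49.4 ± 0.874 CPM at 32 µM (SD, n = 2). The fall at 32 µM was 1.499-fold (log2 fold change -0.58, SE 0.071, adjusted p = 0.00145), just under the cutoff for a call, and it was called in 4 of the 10 fits with 1 library left out and also without the 3 libraries that stood apart (-0.60, adjusted p = 0.0231). At 10 µM Cebpd changed by -0.44 (adjusted p = 0.0179, and 0.16 without the 3 libraries). At 3.2 µM it was -0.28 with an unadjusted p of 0.00475 and an adjusted p of 0.841.

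Atf3, already raised by LPS, was at 49.3 and 50.5 CPM in DMSO + LPS, 58.8 and 57.0 CPM at 3.2 µM, 57.5 and 53.9 CPM at 10 µM and 68.8 and 68.5 CPM at 32 µM. All 6 libraries with **1** lay above both of DMSO + LPS, the levels at 3.2 and 10 µM overlapped, and those at 32 µM stood above the rest. The log2 fold change at 32 µM was 0.46 (SE 0.058, 95% interval 0.33 to 0.60, adjusted p = 0.00169, and 0.029 without the 3 libraries that stood apart). The change at 10 µM was 0.16 (adjusted p = 0.302). Between 10 and 32 µM Atf3 rose by 0.30 on the log2 scale (adjusted p = 0.0357), a step whose adjusted p (2.76% of all genes passed there) stayed under 0.05 in 2 of the 10 fits with 1 library left out and was 0.279 without the 3 libraries.

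None of Junb, Jun and Fosl2 passed the test with **1** at 32 µM. Junb was at 663 and 724 CPM in DMSO + LPS and at 601 and 637 CPM at 32 µM (log2 fold change -0.16, 95% interval -0.30 to -0.033, adjusted p = 0.129). Jun was at 87.2 and 90.0 CPM in DMSO + LPS and at 107 and 99.7 CPM at 32 µM (log2 fold change 0.22, 95% interval 0.073 to 0.37, adjusted p = 0.0766). Fosl2 was at 106 and 99.3 CPM against 114 and 118 CPM (log2 fold change 0.17, 95% interval 0.035 to 0.31, adjusted p = 0.13). For these 3 the pairs of libraries did not overlap, as for 50% of all genes in this comparison, the adjusted p missed the threshold, and the intervals exclude a change of 1.5-fold. Of the 9 tested members, 7 had pairs without overlap at 32 µM.

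Cebpb and Jund had the widest spread between replicates, and the intervals of their response to **1** were the widest. Cebpb was at 153 and 180.5 CPM in DMSO + LPS, 179 and 166 CPM at 3.2 µM, 198 and 136 CPM at 10 µM and 201 and 135 CPM at 32 µM. The log2 fold change at 32 µM was 0.0088 with a 95% interval from -0.56 to 0.58 (adjusted p = 0.996). Jund was at 90.1 and 76.7 CPM at 32 µM, against 73.3 and 86.8 CPM in DMSO + LPS, with an interval from -0.28 to 0.40 (adjusted p = 0.901). Both genes have 67.15% GC in their exons, higher than 99.8% of the 14074 tested genes with a GC value. The replicate differences of both genes had the same sign, with replicate 1 above replicate 2 except in DMSO + LPS, by 0.48, -0.24, 0.12, 0.54 and 0.57 (log2) for Cebpb in DMSO, DMSO + LPS and 3.2, 10 and 32 µM. In the same order the median difference was 0.020, -0.055, 0.0038, 0.097 and 0.054 over the tenth of genes with the highest GC and -0.14, 0.039, -0.0087, -0.19 and -0.16 over the tenth with the lowest. The part of GC content in the spread of Cebpb and Jund was not tested.

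**Figure D2:**
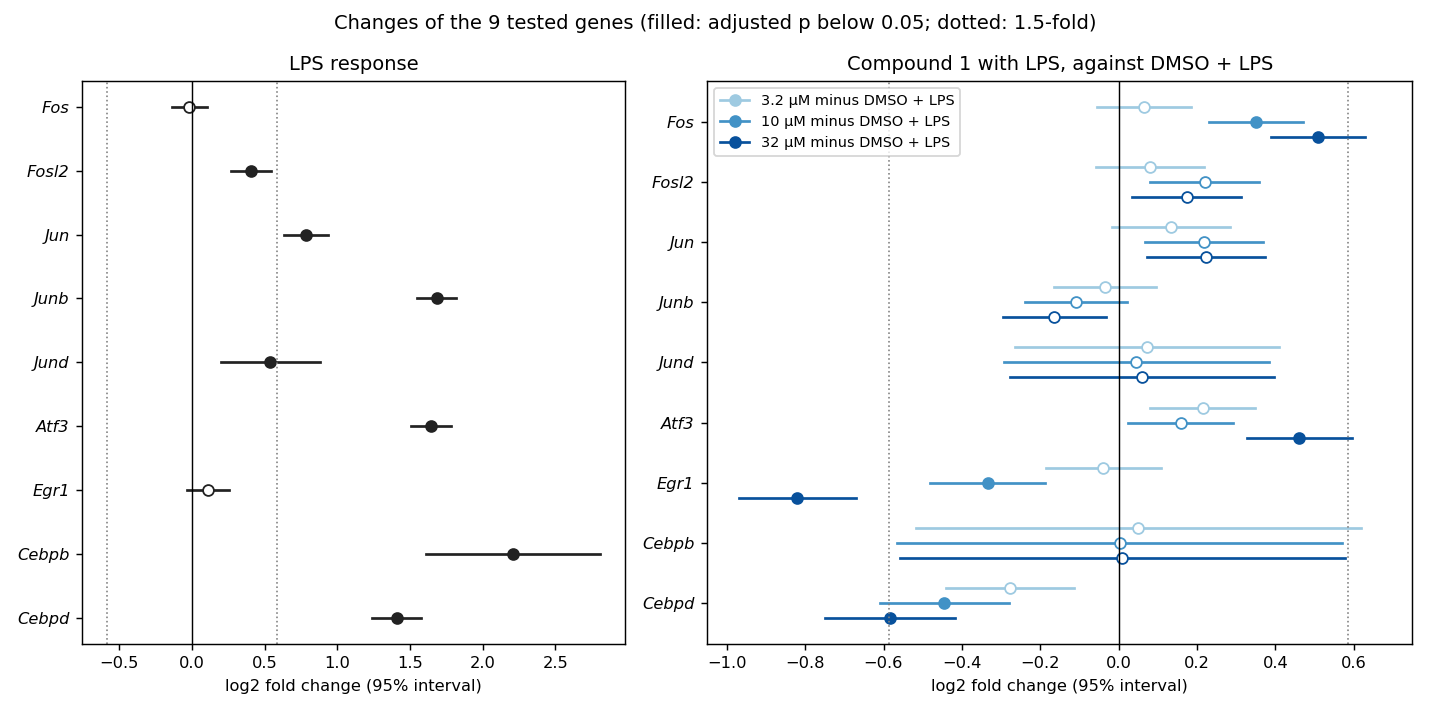
Log2 fold change of the 9 tested members with 95% intervals for LPS against solvent and for each dose of compound against DMSO + LPS, with filled points where the adjusted p was under 0.05 and dotted lines at 1.5-fold. LPS moved Junb (1.69), Atf3 (1.64), Cebpb (2.21) and Cebpd (1.41) most, while at 32 µM Egr1 (-0.82) alone lies past the dotted lines and Cebpb has the widest interval.

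Between neighbouring doses no member was called. Among all genes 1.32% were called between 10 and 32 µM and 0.254% between 3.2 and 10 µM. From 3.2 to 10 µM, Fos (log2 fold change 0.29, adjusted p = 0.059) and Egr1 (-0.30, adjusted p = 0.109) came nearest to the threshold of the edgeR test. As a share of DMSO + LPS, the mean level of Fos was 105, 128 and 142% at 3.2, 10 and 32 µM. Egr1 was at 97.3, 79.3 and 56.6%, and Cebpd at 82.5, 73.5 and 66.7%. Atf3 was at 116, 112 and 138%, so that its middle dose was not above its lowest.

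**Figure D3:**
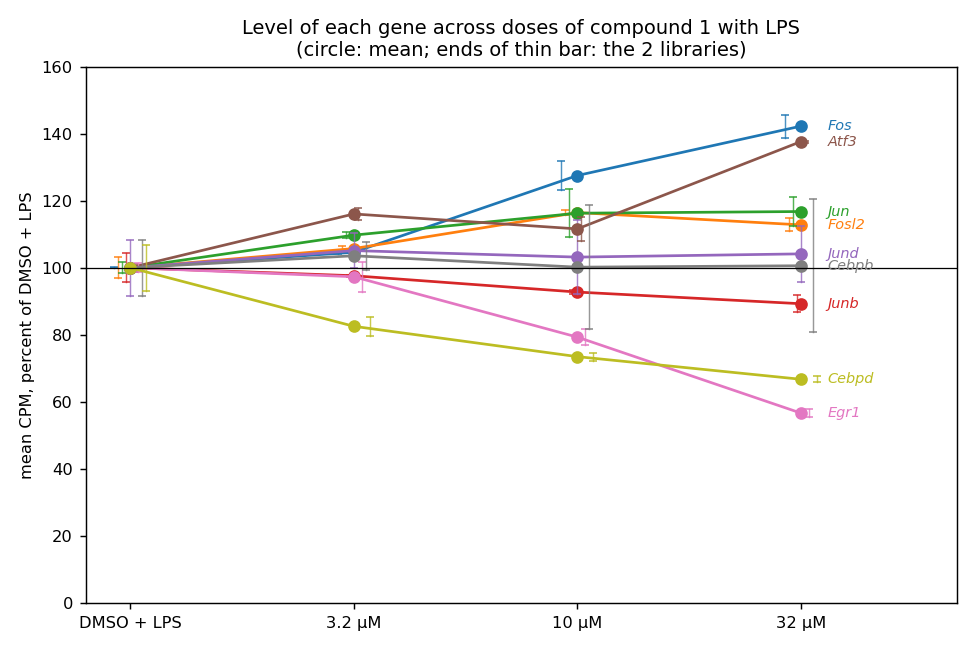
Mean level of each tested member as a percentage of DMSO + LPS at each dose of compound, with thin bars ending at the 2 libraries. Fos (142%) and Atf3 (138%) end highest at 32 µM and Egr1 (56.6%) and Cebpd (66.7%) lowest, and the bars of Cebpb and Jund span the reference level.

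Against DMSO without LPS, cells with LPS and 32 µM of **1** had 7 called members (27.1% of all genes were called, and 50.9% passed the adjusted p alone). Of these, 6 were higher, namely Jun (log2 fold change 1.01), Junb (1.52), Jund (0.60), Atf3 (2.11), Cebpb (2.22) and Cebpd (0.83), and Egr1 was lower (-0.71, adjusted p = 4.31e-05, edgeR). Without **1** the rise over DMSO was 1.69 for Junb and 1.41 for Cebpd. Egr1 was at 15.7 and 15.1 CPM, below the 25.2 and 25.02 CPM of DMSO, without overlap. Fos (0.49, adjusted p = 0.000106) and Fosl2 (0.58, adjusted p = 9.46e-05) passed the adjusted p with less than 1.5-fold. The call of Jund held in 7 of the 10 fits with 1 library left out and was lost without DMSO replicate 2, 10 µM replicate 2 or 32 µM replicate 1.

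Some members share exon sequence with a gene on the opposite strand. Exons of Jun, Junb, Jund, Cebpb and Cebpd overlap those of Junos, Prdx2, Gm11175, Tmem189 and Spidr by 232, 173, 877, 312 and 562 nucleotides, and whether the counting used the strand is not given in the sources used here. Junos had 19 to 42 counts per library (0.435 to 1.12% of those of Jun) and Gm11175 had 0. Prdx2 was at 114 to 198 CPM, Tmem189 at 81.6 to 179 CPM and Spidr at 25.2 to 29.0 CPM. In DMSO Tmem189 had 213 and 272% of the counts of Cebpb, Spidr 98.6 and 105% of those of Cebpd, and Prdx2 94.6 and 68.5% of those of Junb. In DMSO + LPS these shares were 88.9 and 76.9%, 38.4 and 32.3%, and 23.7 and 22.7%. Tmem189 went from 89.4 and 81.6 CPM to 136 and 139 CPM with LPS. The part of these genes in the counts of the members was not tested. Fos, Fosl2, Atf3 and Egr1 had no exon shared with another gene of the annotation.

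The other genes of the AP-1, C/EBP and EGR families were read from lists chosen by name. Over all genes 28.2% were called with LPS (14.6% higher), 4.18% at 32 µM (2.91% lower) and 0.861% at 10 µM. Between 10 and 32 µM 1.32% were called, and 27.1% at 32 µM against DMSO. Of 6 tested AP-1 and BATF subunits (Batf3 was not among the tested genes), LPS raised 3, with a median log2 fold change of 1.28. Fosl1, a FOS protein of activated and invasive cells, went from 9.49 and 8.70 CPM to 101 and 103 CPM (log2 fold change 3.49, SE 0.065, adjusted p = 7.15e-09). Jdp2, a dimer partner that can repress AP-1, went from 55.6 and 57.8 CPM to 598 and 630.1 CPM (3.44, SE 0.054), and Batf2 from 1.72 and 1.39 CPM to 7.61 and 8.31 CPM (2.35, SE 0.18). The log2 fold changes of Fosl1 and Jdp2 were larger than that of any tested member. At 32 µM of **1**, Batf2, a BATF protein induced by interferon, was the 1 of 6 that was called and lay at 2.74 and 2.26 CPM (log2 fold change against DMSO + LPS -1.67, SE 0.18, adjusted p = 0.000653). Batf2 was still called higher there than in DMSO (0.68, adjusted p = 0.015), although not without DMSO replicate 2 or 32 µM replicate 1. Fosl1 (3.73) and Jdp2 (3.63) were also called higher there than in DMSO. Against DMSO + LPS, Fosl1 (0.25, adjusted p = 0.034) and Jdp2 (0.19, adjusted p = 0.0476) were higher at 32 µM by less than 1.5-fold. Their adjusted p was 0.236 and 0.351 without the 3 libraries that stood apart, and none of the 6 was called at 10 µM. Between 10 and 32 µM Batf2 was called lower (-0.99, adjusted p = 0.0266), a call kept in 3 of the 10 fits with 1 library left out (without either DMSO library or 10 µM replicate 2) and lost without the 3 libraries (adjusted p = 0.354).

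Of the 4 other C/EBP genes, LPS raised Ddit3 (1.07), a stress-induced partner without DNA binding of the usual kind, and lowered Cebpa (-0.62), which drives myeloid differentiation, although the call of Cebpa was lost without DMSO + LPS replicate 1. With **1** at 32 µM none of the 4 was called, and Cebpa was at 74.0 and 75.3 CPM against 57.1 and 61.8 CPM (log2 fold change 0.33, adjusted p = 0.00586, and 0.0873 without the 3 libraries that stood apart). In the EGR list, calls went both ways. LPS raised Egr2 (0.77) and Nab1 (0.73), a corepressor of EGR proteins, and lowered Egr3 from 4.83 and 6.06 CPM to 0.437 and 0.639 CPM (-3.34, SE 0.40, adjusted p = 0.000205). Egr2, which was at 9.75 and 8.92 CPM in DMSO + LPS, was called higher at 32 µM with 14.8 and 13.2 CPM (log2 fold change 0.59, SE 0.11, adjusted p = 0.0123), the direction opposite to that of Egr1. That call, at the cutoff, held without the 3 libraries that stood apart (0.67) and in 5 of 10 fits with 1 library left out. It was lost without either DMSO + LPS library, DMSO replicate 2, 10 µM replicate 2 or 32 µM replicate 1.

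Serum response factor and its partners (Srf, Elk1, Elk3 and Elk4), which regulate Fos and Egr1, gave 1 call with LPS and none with **1**. The call, Elk3 (-0.59), was lost without replicate 2 of either condition. Srf was at 127 and 134 CPM in DMSO + LPS and at 105 and 108 CPM at 32 µM (log2 fold change -0.29, adjusted p = 0.0048, and 0.0763 without the 3 libraries that stood apart). Elk3 was at 49.9 and 48.0 CPM and at 60.3 and 61.8 CPM (0.32, adjusted p = 0.00463, and 0.0872 without them).

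Of 13 other early response genes, 9 were called higher (14.6% of all genes were) and 1 lower with LPS, with a median log2 fold change of 0.65. Without the 3 libraries that stood apart 8 were called higher, since Nr4a3 (0.88), called in 3 of the 10 fits with 1 library left out, was no longer called. The highest were Ier3 (5.62), a survival factor, Myc (5.35), and Zfp36 (3.28), which destabilizes cytokine transcripts, and Klf10 fell (-1.24). At 32 µM of **1**, 3 were called lower (2.91% of all genes were) and none higher, with a median of -0.071. Nr4a1, an orphan nuclear receptor, went from 19.2 and 20.7 CPM to 11.5 and 10.8 CPM (log2 fold change -0.84, SE 0.098, adjusted p = 0.00118), and it was also called at 10 µM (-0.65, adjusted p = 0.0137, and 0.155 without the 3 libraries that stood apart), a call also lost without either DMSO + LPS library or 10 µM replicate 1. Ier2 went from 82.7 and 91.8 CPM to 53.1 and 56.3 CPM (-0.67, SE 0.061, adjusted p = 0.000272), and Nr4a2 fell by 0.66 on the log2 scale, a call that was lost without the 3 libraries (adjusted p = 0.0699) or any 1 library of the 2 conditions. Myc, at 66.5 and 67.5 CPM in DMSO + LPS, was at 60.7 and 66.9 CPM. Zfp36 was lower by less than 1.5-fold (-0.44, adjusted p = 0.00128), and Klf10 (0.53) and Klf4 (0.50) were higher by less than 1.5-fold, Klf4 with an adjusted p of 0.0293 that was 0.243 without the 3 libraries.

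Genes known as AP-1 targets were called higher with LPS in 5 of 7 cases, where 14.6% of all genes were. They were Plaur (3.58) and Cd44 (1.39), and Mmp9, Mmp13 and Timp1 from 0 to 0.282 CPM in DMSO. Ccnd1, cyclin D1, was lower with LPS by less than 1.5-fold, from 190.5 and 194 CPM to 142 and 137 CPM (-0.47, adjusted p = 7.60e-05). At 32 µM all 7 log2 fold changes were below 0, with a median of -0.49, and 2 were called, where 2.91% of all genes were called lower. The paper had named both, Mmp9 and Ccnd1, among lowered genes, and the list was chosen with earlier results known. Mmp9, a matrix metalloproteinase, was at 33.2 and 31.9 CPM in DMSO + LPS and at 11.8 and 12.5 CPM at 32 µM, and Ccnd1 at 142 and 137 CPM and at 83.1 and 78.9 CPM (log2 fold change -0.78, SE 0.047, adjusted p = 3.26e-05). Mmp9 was also lower at 10 µM (-1.06, adjusted p = 0.00364), except that the call was lost without DMSO + LPS replicate 1. Plau, the urokinase plasminogen activator, went the other way at 10 µM, from 31.0 and 32.6 CPM to 42.2 and 43.3 CPM (0.43, adjusted p = 0.00914, and 0.108 without the 3 libraries that stood apart). At 3.2 µM it was at 40.6 and 43.0 CPM (0.39, adjusted p = 0.254), and at 32 µM at 29.1 and 30.8 CPM.

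Of 8 genes known as C/EBP targets, 5 were called higher (14.6% of all genes were) and 2 lower with LPS. Il6, an inflammatory cytokine, had 0 counts in DMSO and 94.7 and 99.0 CPM in DMSO + LPS, at least 1615-fold higher against the floor of 3 counts per library. Csf3 went from 0.0680 and 0.0176 CPM to 1213 and 1269 CPM, and Nos2, inducible nitric oxide synthase, from 2 and 0 counts to 11999 and 9463 counts. Lcn2 and Saa3 were also called higher, and Csf1r (-1.48) and Lyz2 (-0.65) lower, the call of Lyz2 being lost without DMSO replicate 1. At 32 µM 6 were called lower with a median log2 fold change of -1.10, where 2.91% of all genes were called lower. The paper had reported Il6 and Nos2 as lowered and counts them among NF-κB targets. This list was chosen with earlier results of these data known, so its count is no independent result on C/EBP proteins. Nos2 was at 209.6 and 202 CPM in DMSO + LPS and at 44.8 and 45.6 CPM at 32 µM (log2 fold change -2.19, SE 0.089). Lcn2, an iron-binding acute phase protein, was at 57.5 and 58.4 CPM and at 15.6 and 14.8 CPM (-1.93, SE 0.12), and Il6 was at 23.2 and 28.9 CPM (-1.89, SE 0.12). Csf3, Saa3 and Lyz2 were also called lower, the call of Lyz2 being lost without 32 µM replicate 2 and without the 3 libraries that stood apart (-0.55). At 10 µM Il6 (-0.96), Lcn2 (-0.94) and Nos2 (-0.89) were called lower. Without the 3 libraries that stood apart Nos2 was not (adjusted p = 0.0514), and the calls of Il6 and Lcn2 were lost without either DMSO + LPS library. Between 10 and 32 µM Nos2 (-1.30), Lcn2 (-0.99) and Il6 (-0.94) were called lower, and that call of Lcn2 was lost without the 3 libraries (adjusted p = 0.0666). At 32 µM Csf1r was higher by less than 1.5-fold (0.40, adjusted p = 0.00118). Lyz2 and Csf1r are also among the macrophage markers, of which Itgam (-0.67) and Lyz2 (-0.61) were called lower at 32 µM, and the summed macrophage marker level given above was lower there too. Of the sum, Lyz2 went from a mean of 4127 to 2707 CPM and Cd14 from 3311 to 2549 CPM, while Csf1r (814 to 1071 CPM), Cd68 (605 to 647 CPM) and Ptprc (243 to 250.1 CPM) were not lower.

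**Figure D4:**
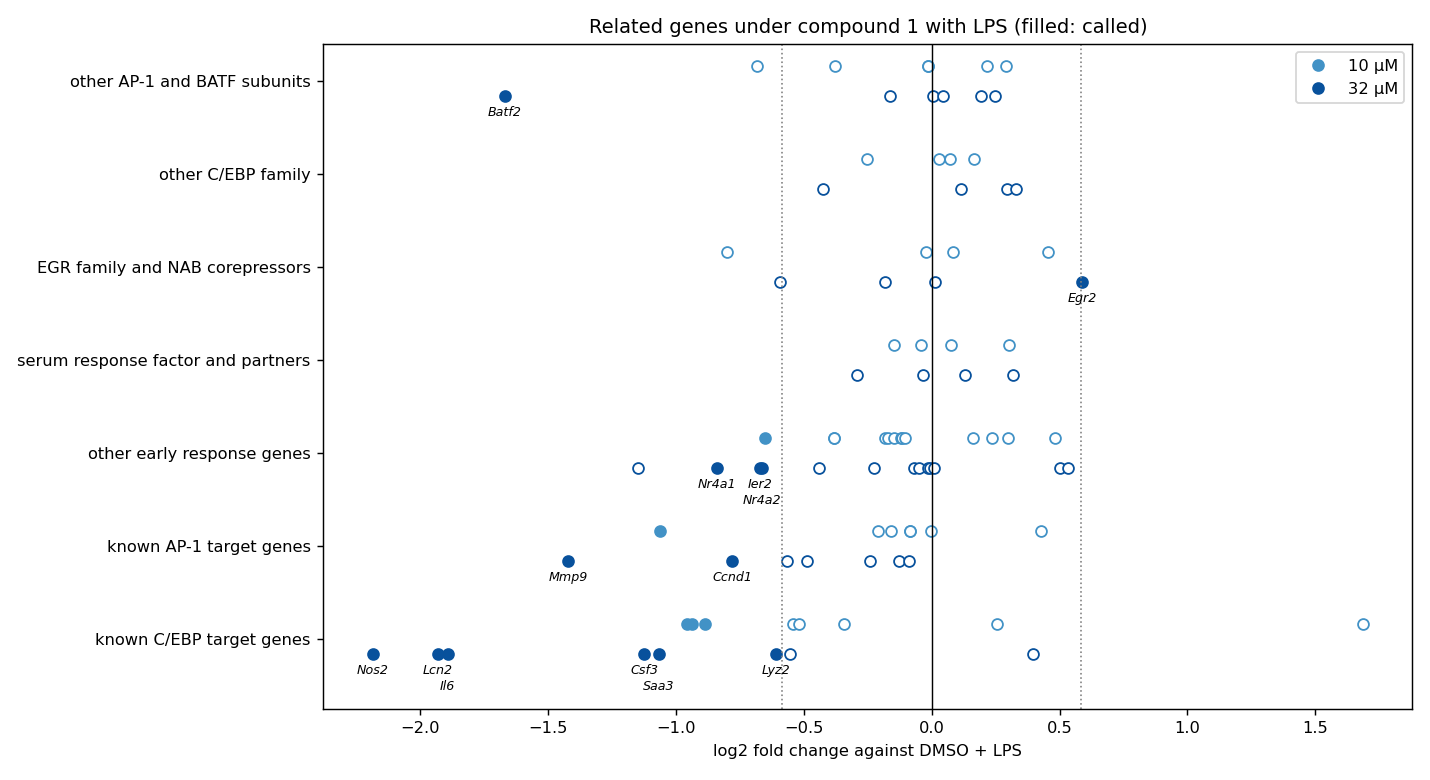
Log2 fold change against DMSO + LPS at 10 and 32 µM of compound for the tested genes of each related list, with filled points for called genes. The C/EBP target genes reach the lowest values (Nos2 at -2.19) and the subunit list holds 1 filled point at 32 µM, Batf2 at -1.67.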

How the data were processed

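The authors prepared poly(A)-selected, directional libraries from RAW264.7 RNA, sequenced them in 1 lane with 2 × 150 cycles, and deposited counts for each mouse Ensembl gene that were not normalized. The submitters' processing notes name Trimmomatic, FastQC, STAR, DESeq2 and the build mm10, without versions or roles. The counting tool, the strand setting and the annotation release are not given in the sources used here. Symbols, positions, exon lengths and GC content came from GENCODE M21 (GRCm38), and 970 identifiers had no symbol.

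filterByExpr at a count minimum of 10 kept 14172 of 43432 genes (19292 had 0 counts throughout), which were scaled by TMM and fitted in edgeR 4.0.16 (R 4.3.3, limma 3.58.1) with 1 mean for each of the 5 conditions over all 10 libraries. Quasi-likelihood F tests had 5 residual degrees of freedom at a common biological coefficient of variation of 0.128, and p-values were adjusted by Benjamini-Hochberg over all tested genes. A call required 1.5-fold and an adjusted p under 0.05. In the smallest library of 45966803 counts the precision of low genes is limited by counting error. All members are named, and from each related list, in each comparison discussed for it, the called genes, or the 3 with the largest change where more were called. Other listed genes are named after their values were seen. The members and gene lists were chosen with earlier results of these data known. Alternatives were DESeq2 1.42.0 (size factors and Wald test), scaling by library size alone, testing without a count filter or above a mean of 5 CPM, 4 libraries only, the likelihood ratio test, other fold cutoffs, a replicate block and each library left out. Scripts were tested on simulated data. No library and no sample column was left out.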

Additional observations from a re-analysis of the deposited data

How the results depend on the processing

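Batf had too few counts to be tested, and the intervals of Cebpb and Jund hold both directions between doses and between each dose and DMSO + LPS. Of 154 counts of called members under the alternatives, 139 stayed within 1.5 times of the reported count. At 32 µM, where 1 member was called, 2 were called with DESeq2 size factors, without the count filter, with genes of 5 CPM or more, with the 4 libraries compared only, by DESeq2's Wald test and without the 3 libraries that stood apart, 4 with no fold cutoff and 0 with a 2-fold cutoff. Cebpd, at the cutoff, is the second gene in each fit that called 2. With no fold cutoff 3 members were called at 10 µM and 2 between 10 and 32 µM, and with the 2-fold cutoff 4 at 32 µM against DMSO. Leaving out 1 library gave 1 to 2 at 32 µM.

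Of 1260 log2 fold changes 1195 kept their direction and their side of the threshold, 7 were lost, 16 passed newly and 42 changed sign, and the cause was not tested. With library size alone, Egr1 was -0.097 for LPS and Jun -3.65e-05 between 10 and 32 µM. Cebpb at 32 µM was -0.0083 without the count filter and -0.000674 with 4 libraries. At 10 µM it was -0.00534 with DESeq2 size factors, -0.020 without the filter, -0.00555 by DESeq2's Wald test and -0.29 without the 3 libraries, which also gave -0.12 for Jund there and -0.0075 for Cebpb at 3.2 µM.

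With 1 library left out, where a condition with 1 library took its spread from the other conditions, log2 fold changes that changed sign ranged from -0.063 to 0.0053 for Fos with LPS. At 32 µM they ranged from -0.061 to 0.18 for Jund and from -0.31 to 0.27 for Cebpb. At 10 µM they ranged from -0.12 to 0.17 for Jund and from -0.29 to 0.22 for Cebpb. At 3.2 µM they ranged from -0.044 to 0.20 for Jund, -0.065 to 0.18 for Cebpb, -0.096 to 0.030 for Junb and -0.11 to 0.025 for Egr1. Between 10 and 32 µM they ranged from -0.072 to 0.097 for Jun, -0.13 to 0.18 for Jund and -0.31 to 0.30 for Cebpb. Between 3.2 and 10 µM they ranged from -0.0084 to 0.16 for Jun, -0.19 to 0.11 for Jund and -0.34 to 0.18 for Cebpb.

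Replicate numbers were not taken to pair the libraries. The correlations of replicate differences between conditions ran from -0.17 to 0.57, with 6 of 10 above 0.1, none of them with DMSO + LPS, and 3 below -0.1, all with DMSO + LPS. A replicate block left every count of called members as it was (5 for LPS, 1 at 32 µM, 0 at 10 µM) and gave -0.031 for Cebpb at 32 µM and -0.035 at 10 µM. With the DMSO + LPS numbers exchanged, chosen after seeing the data as was the fit without the 3 libraries, the block gave -0.013 and -0.017 and called 223 genes at 10 µM. Over all genes the alternatives called 2426 to 7220 for LPS, 317 to 1386 at 32 µM, 36 to 378 at 10 µM and 0 to 66 at 3.2 µM. Library size alone moved the share of higher calls with LPS from 51.9 to 35%.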
